A study of Mus musculus with 6 samples.

Results

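Early lymphoid priming genes, which mark the first steps toward the lymphoid fate, were followed across the arrays: 10 of the 19938 genes tested, taken by symbol and each represented by 1 probeset. They are Dntt, Rag1 and Rag2, which act on antigen receptor genes, Igll1 and Cd79b, which belong to the pre-B cell receptor, the surface proteins Il7r, Notch1 and Cd7, and the nuclear factors Satb1 and Ebf1. The samples were Lin-Kit+Sca-1+ cells, the marrow fraction of stem cells and early multipotent progenitors, from wild-type FVB/nJ mice labelled young adult. Each group had 3 arrays: the control group carried the lentivirus pCAD-IRES-GFP, and the HLX group the same vector with mouse HLX, a homeobox transcription factor. Transduction took place in serum-containing IMDM with IL-3, IL-6 and SCF and 8 µg/ml polybrene, and GFP-positive cells were taken by sorting 2 days later. Per the labels, RNA came from 5000 to 10000 sorted cells, and 3 ng of it was amplified. The labels number the replicates without tying them to mice or cultures, so the p-values cover only the spread among these arrays, part of which may be technical.

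Multipotent progenitors can transcribe some lymphoid genes at a low level before they commit, which is known as lymphoid priming and is strongest in the progenitors with high surface Flt3. The interleukin-7 receptor then supports the growth of common lymphoid progenitors, Ebf1 commits cells to the B lineage, and Notch1 to the T lineage. The Rag recombinase cuts antigen receptor gene segments, and terminal transferase, the product of Dntt, adds bases at the joints.

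The values were log2 levels per probeset on arrays whose medians lay between 6.32 and 6.40. On the checks of the labels, Hlx stood at log2 levels of 6.99, 7.29 and 7.62 with the control vector and at 10.75, 9.74 and 10.28 with the HLX vector. Of the gate's markers, Kit was above background on all 6 arrays, with group means of 9.41 and 9.50, and Ly6a was not analysed here. No deposited value reports detection, so a limit was set on each array from 1243 genes of odour, pheromone and taste receptors. Marrow progenitors are not expected to express these genes, although some of them may be expressed. The limit is the 95th percentile of their levels, and it lay between 6.12 and 6.28. A gene was taken as above background in a group where it exceeded the limit on all 3 arrays. Probesets differ in how brightly they report a transcript, so the limit describes the signal and does not show that a transcript is absent.

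By this limit 5 of the 10 genes, Satb1, Cd7, Cd79b, Notch1 and Igll1, were above background in both groups, against 53.8% of all genes tested. The other 5, Dntt, Il7r, Rag1, Rag2 and Ebf1, were above it in neither group (57.5% of all genes were above it in at least 1). With the 99th percentile as the limit 2 of the 10, Cd79b and Notch1, were above it in both groups. With HLX 9 of the 10 differences were below 0, the exception being Cd7, and the median log2 difference was -0.11, against -0.01 over all genes tested, 52.5% of which were below 0. Of the 9, 5 were above background in neither group and 4 were among the 5 genes above it in both. Rag2 and Igll1 turned positive in fits that left out 1 array (Rag2 0.031, Igll1 0.15 and 0.025). Limma called 0 of the 10 and 0 of the 19938 genes at an adjusted p under 0.05 (0% of those tested). Hlx, the gene carried by the vector, was not called either. Its log2 difference was 2.95 ± 0.27 (SE, n = 3 per group), at an adjusted p of 0.0782 from limma. The lack of calls therefore does not show that no gene changed. At an unadjusted p under 0.05 stood Dntt and Cd79b, both lower, and Cd7, higher: 3 of 10, where 4.8% of all genes stood at that p. The share above background in both groups was close to that over all genes, while the shares below 0 and at an unadjusted p under 0.05 were larger. No test of the set was run, so these counts are not a result about it.

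**Figure D1:**
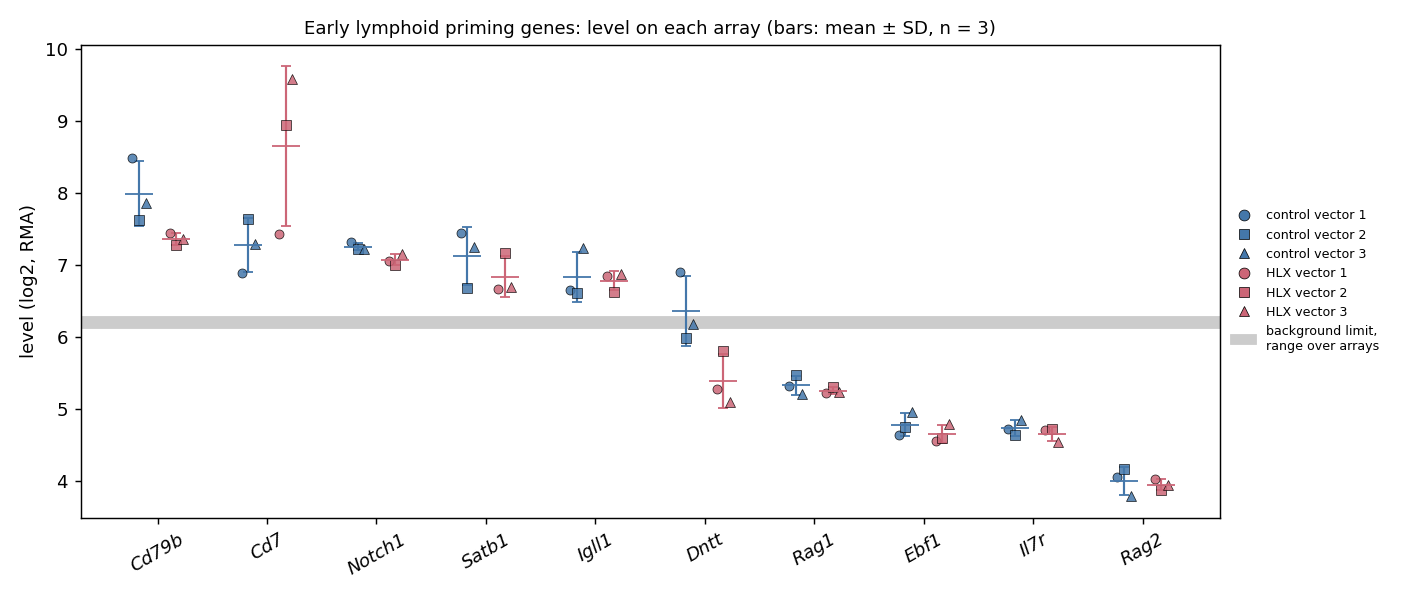
Log2 level of each gene (vertical axis) on each of the 6 arrays, control vector in blue and HLX vector in red, with marker shapes for replicate numbers and bars for the mean ± SD of 3 arrays. The grey band is the range of the background limit, 6.12 to 6.28: Satb1, Cd7, Cd79b, Notch1 and Igll1 lie above it on every array, while Dntt lies above it on control array 1 alone.

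Among the genes that act on antigen receptor loci, Dntt differed most between vectors. It was at log2 levels of 6.90, 5.99 and 6.19 on control arrays 1, 2 and 3 and at 5.28, 5.81 and 5.09 on the HLX arrays. All 3 HLX arrays lay below all 3 control arrays, but the gap between the nearest arrays was only 0.17 log2 units. The fitted difference was -0.96 ± 0.27 (SE, n = 3 per group), or 1.95-fold lower, with an unadjusted p of 0.00887 and an adjusted p of 0.921 from limma. By the exact permutation test over arrays p was 0.1, which is the lowest value possible with 3 arrays in each group. Only control array 1 exceeded the background limit. At the control mean 96.1% of the receptor genes behind that limit were dimmer than Dntt, and at the HLX mean 80.5%. A level at the edge of background compresses a fold change, and in sorted bulk cells fewer Dntt-positive cells and less transcript per cell cannot be told apart. Without control array 1 the difference was -0.69, and without HLX array 2 it was -1.17.

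Rag1 and Rag2, neighbours on chromosome 2 that encode the recombinase subunits, were at background throughout. Rag1 lay between 5.21 and 5.47 on the control arrays and between 5.23 and 5.31 on the HLX arrays. Rag2 lay between 3.79 and 4.17 on the control arrays and between 3.88 and 4.03 on the HLX arrays. In both genes the groups overlapped, and the log2 differences, -0.08 ± 0.10 for Rag1 and -0.05 ± 0.12 for Rag2 (SE, n = 3 per group), were smaller than their errors. Their 95% intervals from limma ran from -0.32 to 0.17 and from -0.34 to 0.24, intervals that at this signal bound the change on the arrays and not in the transcript.

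Promoter windows of 260 bases, from 250 before the start to 10 from the start on, were read from RefSeq on GRCm38.p6, which is the C57BL/6J genome and not that of FVB/nJ. Windows were held for 8 of the 10 genes, all but Cd79b and Cd7. They are shown because HLX is a homeodomain protein and such proteins bind cores of the letters TAAT, which are in capitals here where found on either strand. The genes printed are Dntt, with the most negative difference, although its HLX arrays were at background, Rag2, at background in both groups, and Igll1, above background and with little difference.
Dntt, chr19:41029025-41029284, plus strand: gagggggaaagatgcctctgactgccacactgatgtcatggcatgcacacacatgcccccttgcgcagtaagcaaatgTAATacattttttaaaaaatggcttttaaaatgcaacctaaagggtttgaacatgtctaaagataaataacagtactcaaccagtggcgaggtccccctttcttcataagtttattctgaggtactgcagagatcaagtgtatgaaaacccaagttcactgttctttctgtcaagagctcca
Rag2, chr2:101624462-101624721, plus strand: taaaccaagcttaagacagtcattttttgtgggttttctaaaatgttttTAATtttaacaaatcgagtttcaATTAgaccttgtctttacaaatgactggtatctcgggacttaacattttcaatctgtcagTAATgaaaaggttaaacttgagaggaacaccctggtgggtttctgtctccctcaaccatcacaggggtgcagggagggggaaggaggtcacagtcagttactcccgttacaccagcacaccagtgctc
Igll1, chr16:16863976-16864235, minus strand: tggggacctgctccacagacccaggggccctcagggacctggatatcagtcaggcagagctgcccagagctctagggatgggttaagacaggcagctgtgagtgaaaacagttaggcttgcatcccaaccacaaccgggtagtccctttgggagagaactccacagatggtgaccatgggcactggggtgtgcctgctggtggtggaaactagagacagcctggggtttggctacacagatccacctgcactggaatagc
The Dntt window held 1 TAAT match, that of Rag2 3 and that of Igll1 0, and 55.6% of the 32851 windows in the table held at least 1. E-boxes, the CANNTG sites bound by basic helix-loop-helix factors such as the product of Tcf3, were matched 3 times in Dntt, 1 time in Rag2 and 3 times in Igll1, and 67.7% of all windows held 1 or more. None of the TAAT matches in the members' windows overlapped an E-box match. CCCNNGGG, the core of the palindrome bound by Ebf1, was matched 1 time in Igll1 and in 12.2% of all windows. Over the 13 windows of the 8 genes, which include 5 for Satb1 and 2 for Ebf1, 6 held a TAAT match (46.2%): those of Dntt, Rag1 and Rag2, 2 of Satb1 and 1 of Ebf1, but not those of Notch1, Il7r and Igll1. These are matches of letters, and no binding was measured.

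Of the pre-B cell receptor genes, Cd79b, which encodes a signalling chain of the B cell receptor, was at 8.49, 7.63 and 7.86 on control arrays 1, 2 and 3 and at 7.45, 7.28 and 7.36 on the HLX arrays. The HLX arrays were close together (SD 0.087) and all below the control arrays, whose SD was 0.44 through the high value of array 1. Cd79b was 1.55-fold lower, at a log2 difference of -0.63 ± 0.21 (SE, n = 3 per group), with an unadjusted p of 0.0191 and an adjusted p of 0.936 from limma. Without control array 1 the difference was -0.38, with the groups still apart. Its partner chain gene Cd79a lay between 4.06 and 4.57 on all 6 arrays, under the background limit.

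Igll1 encodes the lambda5 surrogate light chain, which pairs with Vpreb proteins before a light chain gene has been rearranged. It was at 6.66, 6.61 and 7.23 on the control arrays and at 6.85, 6.63 and 6.87 on the HLX arrays. The HLX arrays all lay inside the control range, and the log2 difference was -0.05 ± 0.18 (95% interval from limma -0.47 to 0.37). Vpreb1, a partner of Igll1 and its neighbour on chromosome 16, was at 7.96, 7.29 and 7.55 with the control vector and at 6.12, 6.21 and 7.88 with the HLX vector. HLX arrays 1 and 2 were thus at or near the background limit and HLX array 3 within the control range, and the difference, -0.86 ± 0.45 (SE), had an unadjusted p of 0.0972 from limma. Without HLX array 3 it was -1.43, and the adjusted p remained above 0.05 under every alternative run (0.781 to 1.0). Vpreb1 and Vpreb2 are closely alike in sequence, so their probesets may share signal. Vpreb2 differed by -0.26 ± 0.14 (SE).

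Of the surface receptors, Il7r was at background. Its log2 levels were 4.73, 4.64 and 4.85 with the control vector and 4.71, 4.72 and 4.55 with the HLX vector, near the level of the middle of the chemosensory receptor genes, of which 59.3% were dimmer at the control mean. The difference was -0.08 ± 0.10 (SE). Notch1, the receptor whose cleaved form drives T lineage entry, was above background on every array and varied little. It was at 7.32, 7.22 and 7.23 on the control arrays and at 7.06, 7.0 and 7.15 on the HLX arrays. The groups did not overlap, as in 3 of the 10 genes (Dntt, Cd79b and Notch1, all lower), against 9.19% of all genes in either direction and 4.85% in that one. The size was small, 1.14-fold lower at -0.19 ± 0.092 (SE), and limma gave an unadjusted p of 0.0823.

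Cd7, an immunoglobulin superfamily protein of T, natural killer and early lymphoid cells, was the single gene of the set higher with HLX and the one whose replicates differed most. It was at 6.89, 7.64 and 7.29 on control arrays 1, 2 and 3 and at 7.42, 8.94 and 9.59 on HLX arrays 1, 2 and 3. HLX arrays 2 and 3 stood above every control array, while HLX array 1 lay within the control range, so the groups overlapped. The difference was 1.38 ± 0.51 (SE, n = 3 per group), or 2.59-fold higher, with a 95% interval from limma of 1.14-fold to 5.90-fold. The unadjusted p was 0.0287 and the adjusted p 0.991, and 2.44% of all genes were higher at an unadjusted p under 0.05. The exact permutation test gave p = 0.2. The value turned on which HLX array was present: it was 1.99 without array 1 (adjusted p from limma 0.536) and 0.91 without array 3.

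Id2, an inhibitor of E proteins that innate lymphoid and dendritic cells need, was singled out after its values were seen because the same HLX arrays stood apart in it. It was at 5.97, 6.76 and 6.22 with the control vector and at 6.04, 7.93 and 8.01 with the HLX vector, so HLX arrays 2 and 3 were again above every control array and HLX array 1 was not. Id2 exceeded the background limit on 1 control and 2 HLX arrays and so was above background in neither group, and limma gave an unadjusted p of 0.0873. Gzmb, a cytotoxic granule protease, was likewise singled out because it shared with Dntt and Cd79b their highest array. It was at 7.66 on control array 1 and between 5.33 and 5.60 on the other 5 arrays. Vpreb1, Satb1 and Notch1 also had their highest level on control array 1. Hlx itself was highest on HLX array 1 (10.75), the array with the lowest Cd7 of that group.

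**Figure D2:**
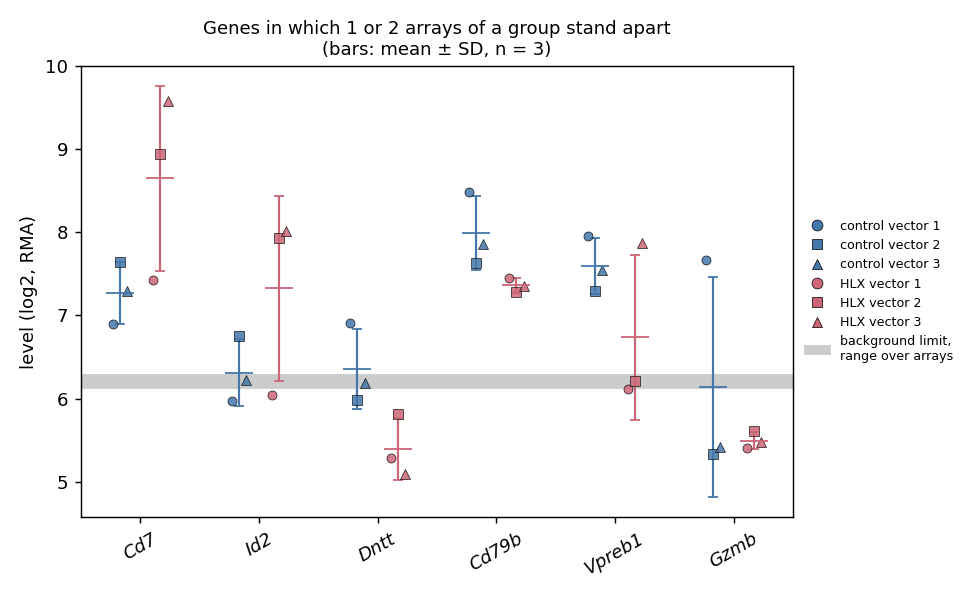
Log2 level (vertical axis) of 3 of the set's genes and of Id2, Vpreb1 and Gzmb on each array, with colours for vectors, shapes for replicate numbers and bars for the mean ± SD of 3 arrays. Cd7 and Id2 are high on HLX arrays 2 and 3 and not on HLX array 1, and Vpreb1 is low on HLX arrays 1 and 2 only. Dntt, Cd79b, Vpreb1 and Gzmb have their highest value on control array 1.

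Neither nuclear factor of the set was called. Satb1, a chromatin organizer of lymphoid genes, was at 7.45, 6.68 and 7.25 on the control arrays and at 6.67, 7.16 and 6.69 on the HLX arrays. Control array 2 lay among the low HLX values and HLX array 2 among the high control values, and the difference was -0.29 ± 0.22 (SE, n = 3 per group). Its 95% interval from limma ran from -0.81 to 0.24. The difference was -0.12 without control array 1 and -0.51 without control array 2 (unadjusted p 0.0304, adjusted p 1.0 from limma). Ebf1 was between 4.64 and 4.96 with the control vector and between 4.56 and 4.80 with the HLX vector, under the background limit on all 6 arrays, with a difference of -0.13 ± 0.12 (SE).

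**Figure D3:**
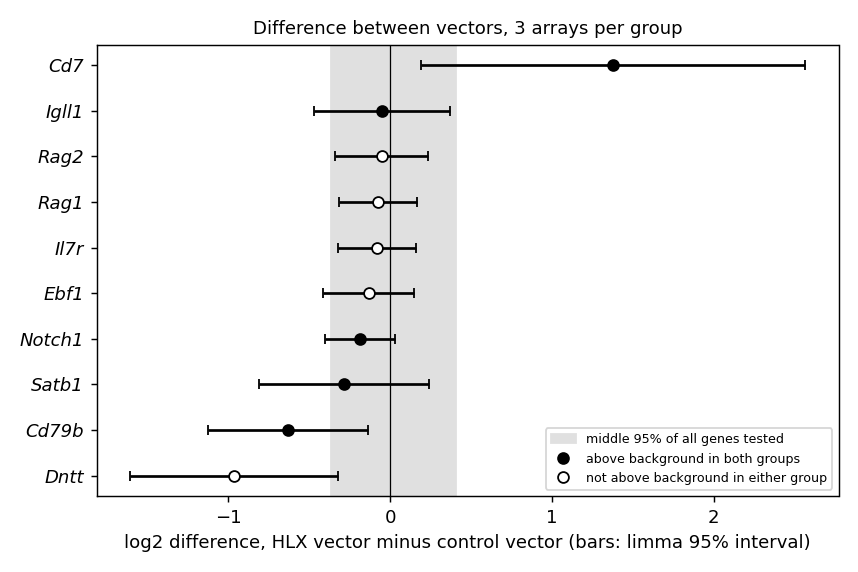
Log2 difference between HLX and control vector (horizontal axis) of the 10 genes, with 95% intervals from limma over 3 arrays per group, filled where a gene was above background in both groups. The intervals of Dntt, Cd79b and Cd7 exclude 0 before adjustment, and the grey band, -0.36 to 0.41, holds the middle 95% of all genes tested.

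Beside the set stood a list of 28 lymphoid transcription factors and their inhibitors. Of these, 27 were measured and 22 were above background in at least 1 group. Of the 27, 17 were above 0 and 10 below, with a median log2 difference of 0.04, and limma called 0 over all genes tested. Ikzf1, which encodes Ikaros and opens lymphoid loci, was close to level at 9.12 ± 0.077 and 9.16 ± 0.073 (SD, n = 3). Tcf3, the gene of the E2A proteins that activate Ebf1, differed by 0.05 ± 0.15 (SE). At an unadjusted p under 0.05 and lower with HLX were Foxp1 (-0.40 ± 0.13), Sox4 (-0.27 ± 0.090) and Tox (-0.44 ± 0.17), where 2.36% of all genes stood. Id1, which like Id2 holds E proteins from DNA, was higher at 0.62 ± 0.23, and Spi1, the gene of PU.1, at 0.70 ± 0.28, both at an unadjusted p under 0.05 and adjusted p from limma of 0.989 and 1.0.

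In the interleukin-7 and Flt3 receptor list 14 of 16 genes were measured, 6 above 0 and 8 below, with a median of -0.04 and 0 calls. Flt3 itself was at 9.12, 9.21 and 9.29 with the control vector and at 8.81, 8.57 and 8.19 with the HLX vector. The groups were 0.31 log2 units apart at their nearest arrays. The difference was -0.68 ± 0.16 (SE), with an unadjusted p of 0.00369 and an adjusted p of 0.901 from limma. The survival gene Bcl2 was at -0.32 ± 0.16 and the signal transducer gene Stat5b at -0.36 ± 0.19, while Flt3l, the ligand gene, was at 0.32 ± 0.17, none of them at an unadjusted p under 0.05. Among 13 of 14 measured surface markers of lymphoid-primed progenitors, which include Flt3, 4 were above 0 and 9 below, with a median of -0.10. Cd93, a receptor of early B cells and progenitors, was at 9.47, 9.58 and 9.47 with the control vector and at 8.87, 9.06 and 8.68 with the HLX vector. All HLX arrays were below all control arrays, at a difference of -0.63 ± 0.12 and an adjusted p from limma of 0.824. Cd27 was at -0.30 ± 0.13 and Cd52 at 0.44 ± 0.22.

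The B cell receptor list had 13 of 15 genes measured, of which 6 were above background in both groups, and its median log2 difference was -0.02 with 0 calls. Syk, the kinase that binds the phosphorylated receptor chains, was at 8.36, 8.18 and 8.20 with the control vector and at 8.61, 8.64 and 8.59 with the HLX vector. The HLX arrays were above the control arrays, as in 4.34% of all genes, at a difference of 0.37 ± 0.095 (SE) and an adjusted p from limma of 0.901. Btk, the next kinase of the chain, was at 0.28 ± 0.13.

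The Notch pathway and the joining machinery had the narrowest ranges of differences among the 6 lists. Of 31 Notch pathway genes 30 were measured, with 11 above 0 and 19 below, a median of -0.03 and differences from -0.23 to 0.26. None stood at an unadjusted p under 0.05 and none was called by limma. The Notch target genes Hes1 and Hes5 were at 0.26 ± 0.17 and -0.14 ± 0.10 (SE), Notch3 was at -0.17 ± 0.12, and Ptcra, a T lineage target, at 0.19 ± 0.088. Of 13 genes that handle recombination ends 12 were measured, 5 above 0 and 7 below, with differences from -0.16 to 0.21 and 0 at an unadjusted p under 0.05 or called. Prkdc, the kinase of end joining, was at -0.16 ± 0.14, Atm at -0.13 ± 0.19, Xrcc4 at 0.17 ± 0.33 and Xrcc5, a Ku subunit, at 0.21 ± 0.21.

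**Figure D4:**
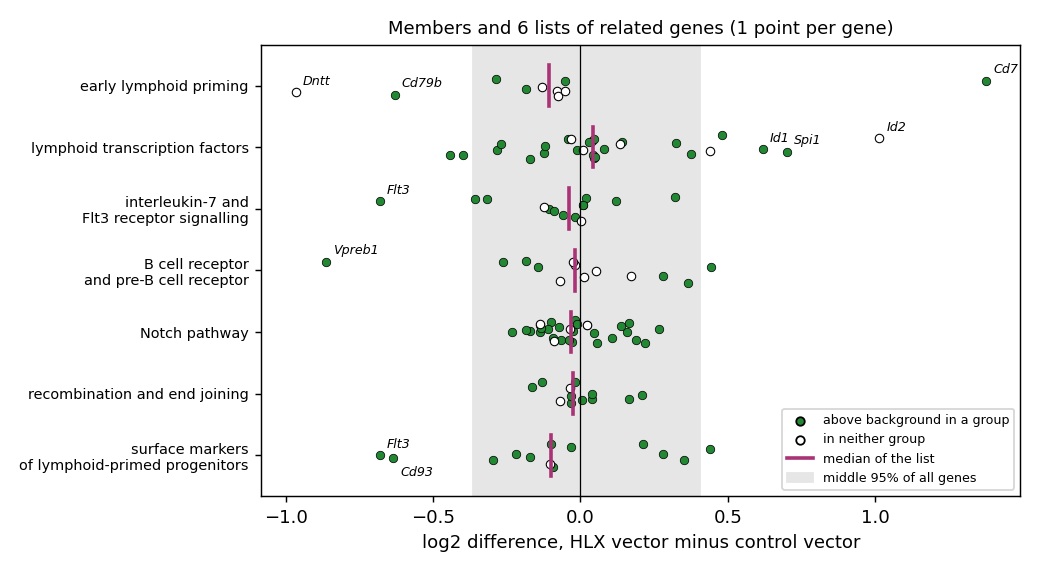
Log2 difference between HLX and control vector (horizontal axis) for each gene of the set and of 6 lists of related genes, 1 point per gene, filled where above background in at least 1 group, with the median of each list as a bar. Most points lie within the grey band that holds the middle 95% of all genes tested, and those past 0.6 on either side are named.

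Markers of mature lymphoid cells and of plasmacytoid dendritic cells were examined because Cd79b, Cd7 and Dntt are also transcribed in such cells. Of 13 mature B and plasma cell genes 5 were above background in both groups. The summed linear level of all 13 was 2384 to 3034 on the control arrays and 2735 to 3097 on the HLX arrays. Sums for the lists below likewise run over all measured genes of a list, with those at background included. The brightest genes weigh most in a sum. In the B cell list these were Cd74 and Cd37, at control means of 9.83 and 9.75. A sum therefore does not measure the share of such cells. The 5 above background in both groups were Cd74, Cd37, Fcer2a, Xbp1 and Sdc1. Pax5 was above the limit on 3 control and 2 HLX arrays. Ms4a1, Cd22, Cr2, Bank1 and Jchain were among those below it on all arrays. Of 14 T cell genes 6 were above it in both groups, with sums of 1209 to 1358 and 1282 to 1391. Cd3e, Cd8a, Cd5, Cd6, Lat and Thy1 were the 6, Cd3d, Cd3g and Themis were among those below it on all arrays, and Thy1, which progenitors also carry, was at a difference of 0.75 ± 0.16. Of 13 natural killer and innate lymphoid genes 3 were above it in both groups, with sums of 666 to 849 and 647 to 703, and of 626 to 646 and 598 to 658 without Gzmb. The 3 were Prf1, Xcl1 and Rora, and Ncr1, Klrb1c and Klrk1 were among those below it on all arrays. Of 8 plasmacytoid dendritic cell genes 5 were above it in both groups, with sums of 931 to 1018 and 902 to 964. Of the 8, 2 were above 0 and 6 below, with a median log2 difference of -0.10. Spib, above the limit on the 3 HLX arrays and 1 control array, was at 0.28 ± 0.14 (SE). Siglech, above it on 2 control arrays and 0 HLX arrays, was at -0.32 ± 0.10 (SE). Itgam, a myeloid integrin from the list of genes for the Lin-Kit+Sca-1+ gate, was above the limit on 1 control and 3 HLX arrays. Its difference was 0.89 ± 0.22 (SE). The arrayed cells were those sorted as GFP-positive 2 days after transduction. Ly6g, from the same list of genes for the Lin-Kit+Sca-1+ gate, was under the limit on all 6 arrays, at -0.15 ± 0.095 (SE). Of the 12 measured genes of that list 3 were above 0 and 9 below, with a median log2 difference of -0.07. The part of other cell types in the values of Cd79b, Cd7 and Dntt was not tested.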

How the data were processed

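Expression was measured on 6 Affymetrix arrays, 3 per vector. The authors deposited log2 levels for each probeset; the submitters' processing notes name RMA and Affymetrix Power Tools 1.178 as the means. RMA subtracts background, equalizes the arrays and summarises probes, which compresses weak signals. The log2 scale was read from the values. The sources used here name no genome build. The number of arrays limits the precision.

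Of 35556 probesets, 21789 had 1 gene symbol in the platform annotation, 1621 several and 12146 were unlisted and so unnamed here. The brightest probeset per gene by mean over 6 arrays left 19938 genes, with no filter on dim probesets; all 10 genes of the set had 1 probeset. Limma 3.58.1 (lmFit, eBayes) in R 4.3.3 compared the vectors (2-sided; Benjamini-Hochberg over the 19938 genes; called at an adjusted p under 0.05), with 4 residual and 3.32 prior degrees of freedom. The SE of a difference is limma's moderated SE. Background was the 95th percentile of 1243 chemosensory receptor genes on each array. From each list of related genes, up to 4 above background with the smallest p were named, beside a few fixed by name; not all are printed, and further markers stand for their list. Cd5, Cd3e, Xbp1, Cr2, Bank1, Jchain, Ms4a1, Cd3d, Cd3g, Themis, Ncr1, Klrb1c, Klrk1, Siglech, Spi1, Id2 and Gzmb were named after their values were seen. So was Ly6g. The genes and lists were chosen with earlier results of these data known. The code was tested on simulated data. Alternatives were other variance priors, filters, normalizations, array weights, a replicate block and leaving out each array. Python 3.11.15 and matplotlib 3.10.9 drew the figures.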

Additional observations from a re-analysis of the deposited data

How the results depend on the processing

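Limma called 0 of the 10 genes under all alternatives run, with adjusted p never below 0.536. Over all genes the count was 0 except with a trended and robust variance prior, where it was 1. That gene was Hlx, which the vector carries (adjusted p from limma 0.0377). Dntt, Cd79b, Cd7, Notch1, Satb1, Ebf1, Il7r and Rag1 kept their direction wherever tested; the filters on dim genes left 5 of the 10 to test, without Dntt. At an unadjusted p under 0.05 stood 3 of the 10, and 1 to 4 when 1 array was left out; the count of 1 came without HLX array 2. Without control array 2 Rag2 turned to 0.031 (range over fits without 1 array -0.16 to 0.031). Igll1 turned to 0.15 without control array 3 and 0.025 without HLX array 2 (range -0.16 to 0.15). With the 99th percentile as background limit, 2 of the 10, Cd79b and Notch1, were above it in both groups, in place of 5; with the 90th the count was 5, and Dntt exceeded that limit on 3 control arrays and 1 HLX array. With the replicate number as a block, limma called 0 genes (smallest adjusted p 0.636) and 3 of the 10 stood at an unadjusted p under 0.05. Deviations of same-numbered arrays correlated at 0.20, 0.0085 and 0.14, and those of differently numbered arrays at -0.23 to 0.11. These values do not settle whether the numbers pair the arrays. The labels do not tie the numbers to mice or cultures, so the main fit left the arrays unpaired.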

Other observations

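Some listed genes that the report does not describe were uneven within 1 of the groups, and they were picked out after their values were seen. Zfp521, a zinc finger protein known to oppose Ebf1, was at log2 levels of 6.22, 6.50 and 6.06 with the control vector and at 5.72, 7.39 and 6.99 on HLX arrays 1, 2 and 3. Lax1, an adaptor of lymphocyte receptors, was at 8.37 on HLX array 2 and between 6.38 and 7.03 on the other 5 arrays. Irf4, a factor of later B cells and of dendritic cells, was uneven within the control group, at 6.18, 6.95 and 7.17 with the control vector and at 7.22, 7.25 and 7.27 with the HLX vector, and its difference was 0.48 ± 0.24 (SE, n = 3 per group).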
